A study of Mus musculus with 6 samples.

Results

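KPC490 and KPC630 are the closest pair among 6 mouse cell lines of pancreatic ductal adenocarcinoma (PDAC), and the genes described here set that pair apart from KPC142, KPC180, KPC469 and KPC850. All 6 lines carry the label KPC, the usual name of a family of genetically engineered mouse models of this tumour. Polyadenylated RNA was sequenced from 1 library per line, so no difference has a replicate check and no test across lines was made. The study concerned how far CD8+ T cells enter tumours made by such lines, but the labels used here do not give the class of any line. They also give neither the allele, age or sex of the source animal nor a treatment.

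Genes were chosen by their measured level in the same 6 libraries. A gene was selected when it reached at least 10 CPM, the count scaled to a common library size, in any line and both lines of the pair lay above all 4 others, or both below. Of 56953 genes in the table, 10234 reached that level and 1461 (14.3%) were selected. The pair was above the others for 733 genes (7.16% of the 10234) and below them for 728 (7.11%). The distance on log2 CPM between the pair and the nearest of the other lines, called the gap here, was at least 2-fold for 42 genes above (0.410%) and for 9 below (0.0879%). It was at least 4-fold for 16 genes above (0.156%) and for 1 below (0.00977%). These shares were fixed by the values that chose the genes, so nothing is read from them. The rule is also unequal between the 2 directions at large gaps. A gene with the pair below has to be expressed in 4 lines, and a gene with the pair above in only 2. Whether this accounts for the unequal split was not tested.

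Most gaps were narrow. The median gap was 0.12 on the log2 scale (1.09-fold) for genes above and 0.13 (1.10-fold) for genes below. It was under 0.2 for 512 of the genes above (69.8%) and for 482 of those below (66.2%). For each gene the 2 lines at the edge of the gap were compared by the ratio of their CPM, with an exact conditional binomial 95% interval that covers counting error only. That interval lay wholly above 1 for 313 genes above (42.7%) and 306 below (42.0%). Just inside the rule stood Rpl28 and Neurl4 above, with gaps of 0.00038 and 0.00057, and Ist1 and Tbck below, with 0.00061 and 0.00075. Just outside stood Ly6k, which read 24.9 CPM in KPC490 and 0 in the other 5 lines, with Gm43305, Mgp and Adamts2. At the expression minimum, Hmgn3 (highest line 10.2 CPM) was inside and Zswim3 (9.99 CPM) outside.

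Leaving out 1 line changed how many genes qualified. Either fewer lines then have to be passed, or only 1 line of the pair has to pass them. Without KPC469, KPC850, KPC490 or KPC630 the count above became 1144, 1255, 1801 and 1876. The count below became 1232, 1718 and 1596 without KPC850, KPC490 and KPC630. The counts of 2-fold gaps above were 70, 98, 82 and 100 without KPC469, KPC850, KPC490 and KPC630. Those below were 15, 19, 28, 21, 56 and 57 without KPC142, KPC180, KPC469, KPC850, KPC490 and KPC630.

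PDAC cells descend from an epithelium of the exocrine pancreas, and lines of this tumour keep or lose epithelial features to different degrees. Epithelial cells are held together by tight junctions, built with claudins, and by adhesion proteins such as E-cadherin and Epcam. Transcription factors of the Snail and Zeb families repress such genes by binding a short DNA element, the E-box. Imprinted genes are read from 1 parental chromosome only, and DNA methylation at CG dinucleotides keeps the other copy silent.

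The selection of the pair rested on the whole transcriptome. KPC490 and KPC630 had a Spearman correlation of 0.961 over the 11531 genes kept by an expression filter, the highest of the 15 pairs of lines. The pair also ranked 1 by Spearman correlation over the genes at the 10 CPM minimum (0.940), by Pearson correlation (0.959) and by Euclidean distance over the 1000 most variable genes (43.4). KPC850 was the next closest to both, with 0.952 to each, while KPC469 and KPC850 were the most distant at 0.908. Between KPC490 and KPC630, 928 genes (9.07% of the 10234) still differed at least 2-fold and 264 (2.58%) at least 4-fold. KPC850 differed at least 2-fold from KPC490 for 1123 genes (11%) and from KPC630 for 1144 (11.2%).

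**Figure D1:**
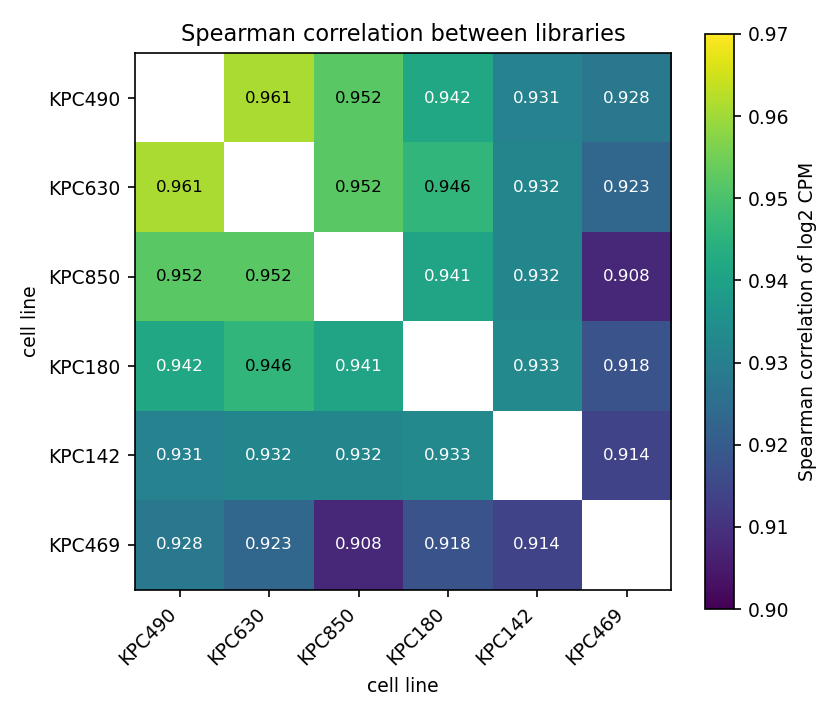
Spearman correlation of log2 CPM between each 2 of the 6 lines over 11531 genes, as coloured cells with the value printed, 1 library per line. KPC490 and KPC630 show the highest value, 0.961, and each reaches 0.952 with KPC850.

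Library totals ran from 16471558 to 18701274 counts, and scaling factors were near 1 in all lines (0.986 to 1.01). A count of 0 in a library allows up to 3 counts, or 0.160 to 0.182 CPM. Ductal and PDAC epithelial markers were plentiful: the 8 summed to 7123 and 11189 CPM in the pair and to between 2876 and 11858 in the others. Keratin 8 (Krt8) alone read 2393 CPM in KPC490 and 3202 in KPC630. T and NK cell markers summed to 0 in both lines of the pair, and 4 of the 6 read 0 in all lines. Fibroblast markers summed to 0.987 to 3.83 CPM in the pair and 0.659 to 7.30 in the others, and myeloid markers to 1.57 to 4.21 and 1.64 to 3.0.

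Peg3 (ENSMUSG00000002265, chromosome 7), an imprinted gene for a zinc finger protein expressed from the paternal copy, had the widest gap of all. It read 12.3 CPM in KPC490 and 15.2 in KPC630, against 0.180 in KPC142, 0.0607 in KPC180 and 0 in KPC469 and KPC850. The pair held 212 and 286 counts, and the 4 other lines 3, 1, 0 and 0. The ratio at the edge of the gap, KPC490 to KPC142, was 68.5 (95% interval 23.1 to 335), and the gap was 5.40. In bulk RNA, fewer cells that express a gene and less RNA of it per cell cannot be told apart. The next genes on either side among those that reached the expression minimum, Zfp28 and Clcn4, read 4.02 to 12.6 CPM and 26.5 to 45.6 CPM over the 6 lines. KPC630 was the highest line for both, by a small margin over KPC469, but KPC490 lay inside the range of the others, so neither gene was selected. Usp29, imprinted with Peg3, read 0.523 CPM in KPC490, 0.106 in KPC630 and at most 0.0599 elsewhere. These are 9 counts in KPC490, 2 in KPC630 and 1 in KPC142, and the edge interval (0.0925 to 105) did not exclude 1. Transcripts of Usp29 also share 2526 bases at 100% identity with those of Zim3, which leaves its level uncertain. Zim1, a neighbour of Peg3, read 0 in every line.

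Pag1 (ENSMUSG00000027508, chromosome 3) encodes a membrane adaptor that recruits Csk, the kinase that restrains Src family kinases. It read 27.6 CPM in KPC490 and 46.5 in KPC630, against 0.0599 in KPC142, 1.40 in KPC180, 1.25 in KPC469 and 1.17 in KPC850. The edge ratio was 19.8 (13 to 31.6) and the gap 4.20. Fabp5, the expressed gene next to it and a fatty acid carrier, read 107 and 87.8 CPM in KPC490 and KPC630. In the others Fabp5 spread widely, at 1.98 in KPC142, 5.95 in KPC180, 15 in KPC469 and 67.4 in KPC850, which left a gap of 0.38. Zfp704, on the other side of Pag1, did not follow this order: it read 56.2 and 50.3 CPM in the pair, 0 in KPC142 and 98.6 in KPC469.

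Cldn3 (ENSMUSG00000070473, chromosome 5), a tight junction claudin, was highest in the pair, with KPC142 next and low counts in KPC850 and KPC469. It read 73.7 CPM in KPC490 and 90.7 in KPC630, then 42.6 in KPC142, 3.91 in KPC850, 0.599 in KPC469 and 0 in KPC180. The gap was 0.79 with an edge ratio of 1.73 (1.58 to 1.90). KPC142 alone set it: without KPC142 the gap was 4.20, and without KPC490 it was 1.09.

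Epcam (ENSMUSG00000045394, chromosome 17), the epithelial cell adhesion molecule, stayed low throughout. It read 7.32 CPM in KPC490 and 10.5 in KPC630, then 4.58 in KPC469, 1.32 in KPC142, 0.699 in KPC850 and 0.243 in KPC180. The gap was 0.66 with an edge ratio of 1.60 (1.20 to 2.13). KPC469 was the limiting line, and the gap was 2.37 without KPC469 and 1.18 without KPC490.

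The promoter sequences of 4 of these genes are shown with the elements named above marked. Peg3 and Mxra8 had the widest gaps with the pair above and below, and Cldn3 and Epcam are the epithelial genes. Each window runs from 250 bases before to 50 bases after the start of the gene in RefSeq, on build GRCm38.p6, written 5′ to 3′ on the strand of the gene. In Peg3 (chr7:6730370-6730669, minus strand) and Mxra8 (chr4:155839430-155839729, plus strand) capitals mark CG dinucleotides, of which there are 13 and 8.
Peg3: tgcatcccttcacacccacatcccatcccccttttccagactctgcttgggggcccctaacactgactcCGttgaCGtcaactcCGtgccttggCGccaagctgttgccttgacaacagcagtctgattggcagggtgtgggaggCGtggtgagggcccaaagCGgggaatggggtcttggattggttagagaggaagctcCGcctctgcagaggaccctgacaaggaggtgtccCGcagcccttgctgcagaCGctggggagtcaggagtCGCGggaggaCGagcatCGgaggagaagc
Mxra8: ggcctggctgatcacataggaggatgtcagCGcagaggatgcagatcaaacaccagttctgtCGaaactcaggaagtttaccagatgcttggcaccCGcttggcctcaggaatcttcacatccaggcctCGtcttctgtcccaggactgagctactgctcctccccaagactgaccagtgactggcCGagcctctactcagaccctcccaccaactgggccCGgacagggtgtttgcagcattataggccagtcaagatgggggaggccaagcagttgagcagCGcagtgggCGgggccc
In Cldn3 (chr5:134985964-134986263, plus strand) and Epcam (chr17:87635729-87636028, plus strand) capitals mark CACCTG, 1 form of the E-box. It was searched on both strands, so that CAGGTG is the same motif read from the other strand. Other forms of the E-box are not marked.
Cldn3: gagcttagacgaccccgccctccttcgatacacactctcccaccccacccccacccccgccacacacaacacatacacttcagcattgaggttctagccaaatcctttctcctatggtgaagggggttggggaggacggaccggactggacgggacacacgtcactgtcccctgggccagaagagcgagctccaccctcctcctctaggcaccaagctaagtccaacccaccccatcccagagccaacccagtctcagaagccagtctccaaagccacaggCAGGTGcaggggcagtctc
Epcam: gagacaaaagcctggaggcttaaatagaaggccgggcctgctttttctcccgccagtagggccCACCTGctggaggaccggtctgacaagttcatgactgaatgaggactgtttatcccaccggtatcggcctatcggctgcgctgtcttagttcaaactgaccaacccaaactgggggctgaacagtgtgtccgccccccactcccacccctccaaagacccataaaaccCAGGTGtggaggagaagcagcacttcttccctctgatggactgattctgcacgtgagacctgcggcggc
Cldn3 held 1 match and Epcam 2. At least 1 match was present in 5413 of 27025 windows of the same length (20.03%), and in 16.4% of those found for the expressed genes. Windows with at least 15 CG dinucleotides made up 35.2% of all 27025 and 76.9% of those found for the expressed genes. No comparison of selected with expressed genes is read here, because a window was found for only 79.1% of the expressed genes. A match describes letters in a window and is not a measured site, and methylation was not measured.

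Several of the other genes with the widest gaps above were barely detected in the 4 other lines. Glt1d1, a glycosyltransferase gene on chromosome 5, read 19.5 and 14.4 CPM in KPC490 and KPC630, 0.243 in KPC180 and 0 in the other 3 lines (edge ratio 59.2, 22.9 to 219; gap 5.34). Isx, the intestine-specific homeobox factor (chromosome 8), read 16.8 and 8.62 CPM in the pair, 0.180 in KPC142, 0.0583 in KPC850 and 0 in KPC180 and KPC469 (gap 4.89). Both genes separated the pair from the rest by more than the difference within it.

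Galnt18, of the family that starts mucin-type O-glycosylation, read 10.7 CPM in KPC490 and 2.66 in KPC630 and had 0 counts in all 4 others. Against the highest floor of 3 counts among those libraries, KPC630 was at least 14.6-fold higher. Nhs, the X-linked Nance-Horan syndrome gene, read 13.6 and 6.97 CPM in KPC490 and KPC630, 0.327 in KPC469 and 0 elsewhere (gap 4.0). Cers4, a ceramide synthase gene, read 19.5 and 17.4 CPM in the pair, 1.74 in KPC142, 0.699 in KPC850 and 0 in KPC180 and KPC469 (gap 3.24). Its transcripts share stretches of up to 351 bases with those of other expressed genes at 90.3% identity, so reads of Cers4 could in part be shared between genes.

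Some of the wide gaps lay side by side. Cdhr1, a cadherin of photoreceptors, and 2610528A11Rik are neighbours on chromosome 14. Cdhr1 read 9.87 and 12.0 CPM in KPC490 and KPC630 and 0, 0.121, 0.0545 and 0.758 in KPC142, KPC180, KPC469 and KPC850 (gap 3.52). 2610528A11Rik read 19.2 and 10.4 CPM in the pair and 0, 0, 0.0545 and 0.699 in those 4 lines (gap 3.70). Cst9 and Cst3, 2 cystatin genes that encode cysteine protease inhibitors, are neighbours on chromosome 2. Cst9 read 14.0 and 12.6 CPM in the pair and 0.240, 0.728, 0.0545 and 1.52 in the same 4 lines (gap 2.97). Cst3 was abundant in every line and its gap was 0.18.

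Of the consecutive genes Ly6k, Ly6e, Ly6a and Ly6c1 on chromosome 15, all but Ly6k, which was detected only in KPC490, were selected. Ly6 genes encode small surface proteins held by a lipid anchor, and Ly6a is the antigen known as Sca-1. Ly6c1 read 32.4 and 52.5 CPM in KPC490 and KPC630, against 5.75, 0.121, 2.12 and 1.69 in KPC142, KPC180, KPC469 and KPC850 (edge ratio 5.62, 4.52 to 7.06). Ly6a read 256 and 426 CPM, against 77.8, 2.25, 28.7 and 50.4 in those lines (3.29, 3.10 to 3.51). Ly6e read 704 and 482 CPM, against 314, 16.1, 218 and 263 (1.54, 1.49 to 1.59). All 3 selected genes were lowest in KPC180. Ly6a and Ly6c1 share 263 bases at 96.6% identity, so their separate levels are uncertain.

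On chromosome 6, the neighbours Igf2bp3, Malsu1 and Gpnmb were all selected. Igf2bp3, an RNA-binding protein of fetal tissue, read 59.9 and 41.7 CPM in KPC490 and KPC630, against 0.300 in KPC142, 8.98 in KPC180, 0.436 in KPC469 and 8.28 in KPC850 (edge ratio 4.64, 3.89 to 5.57). Malsu1, a mitochondrial ribosome factor whose transcripts overlap those of Igf2bp3 over 1529 identical bases, read 33.2 and 24.0 CPM in the pair and 14.3 to 20.6 in the others. Gpnmb, a membrane glycoprotein, read 11.6 CPM in KPC490 but 0.639 in KPC630, and at most 0.109 in the others.

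Genes of cell signalling made up part of the remaining 2-fold genes. Tec, a non-receptor tyrosine kinase, read 24.9 and 14.5 CPM in KPC490 and KPC630, against 2.28, 3.28, 3.87 and 3.09 in KPC142, KPC180, KPC469 and KPC850 (edge ratio 3.74, 2.87 to 4.93). Stk39, a kinase that regulates ion cotransporters, was nearly equal in the pair at 35.8 and 36.6 CPM, against 0, 3.03, 11.8 and 4.72 in those 4 lines. Pik3r5, a regulatory subunit of PI3-kinase gamma, read 68.6 and 55.1 CPM, against 12.2, 2.73, 17.3 and 20.3. The edge ratios of Stk39 and Pik3r5 were 3.03 (2.59 to 3.55) and 2.71 (2.39 to 3.06), and no other line came near the pair in these 3 genes.

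Ion channels and secreted or surface proteins were also present. Trpv4, a calcium-permeable channel, read 4.24 and 11.8 CPM in KPC490 and KPC630 and at most 1.27 in the others. Kcnk1, a potassium channel, read 6.74 and 12.7 CPM in the pair and at most 2.23 in the others. Cdcp1, a transmembrane substrate of Src kinases, read 39.5 and 32.6 CPM in the pair and 1.21 to 11 in the others. Adamts1, a secreted metalloprotease, read 13.2 and 24.8 CPM in KPC490 and KPC630, against 0.899, 1.52, 5.12 and 2.39 in KPC142, KPC180, KPC469 and KPC850.

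Most of the 42 genes were of modest abundance. In 36 of them the highest line was under 50 CPM, 12 were under 1 CPM in all 4 other lines, and 5 lay on the X chromosome. The 5 X-linked genes were Nhs, Rps6ka6, Lrch2, Klhl13 and Il13ra1. They made up 11.9% of the 42, while 2.97% of the expressed genes were X-linked. Lrch2, a leucine-rich repeat gene, read 24.5 and 22.9 CPM in KPC490 and KPC630, 5.07 in KPC469, 0.303 in KPC180 and 0 in KPC142 and KPC850. Klhl13, an adaptor of a ubiquitin ligase, read 71.8 and 45.1 CPM in the pair, 18.6 in KPC142 and at most 0.408 in the others. Xist, which silences 1 X chromosome of female cells, did not separate the pair: it read 1610 and 1838 CPM there, 1124 in KPC180, 2329 in KPC850 and at most 0.545 in KPC142 and KPC469.

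Another entry among the widest gaps, looked at after its values were seen, shares a long stretch of sequence with an abundant gene. Gm15459 read 201 and 388 CPM in KPC490 and KPC630 and 4.49 to 5.54 in the others (gap 5.16), and it shares 1941 bases at 99.7% identity with Hspa8, a constitutive heat shock protein gene. Hspa8 read 2007 and 1950 CPM in KPC490 and KPC630, against 2107, 3023, 2412 and 2702 in KPC142, KPC180, KPC469 and KPC850. Summed, the 2 entries read 2208 and 2339 CPM in the pair and 2112, 3028, 2417 and 2707 in the others. How reads were divided between these entries was not examined, and Hspa8 makes up most of the sum, so the level of Gm15459 is uncertain.

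**Figure D2:**
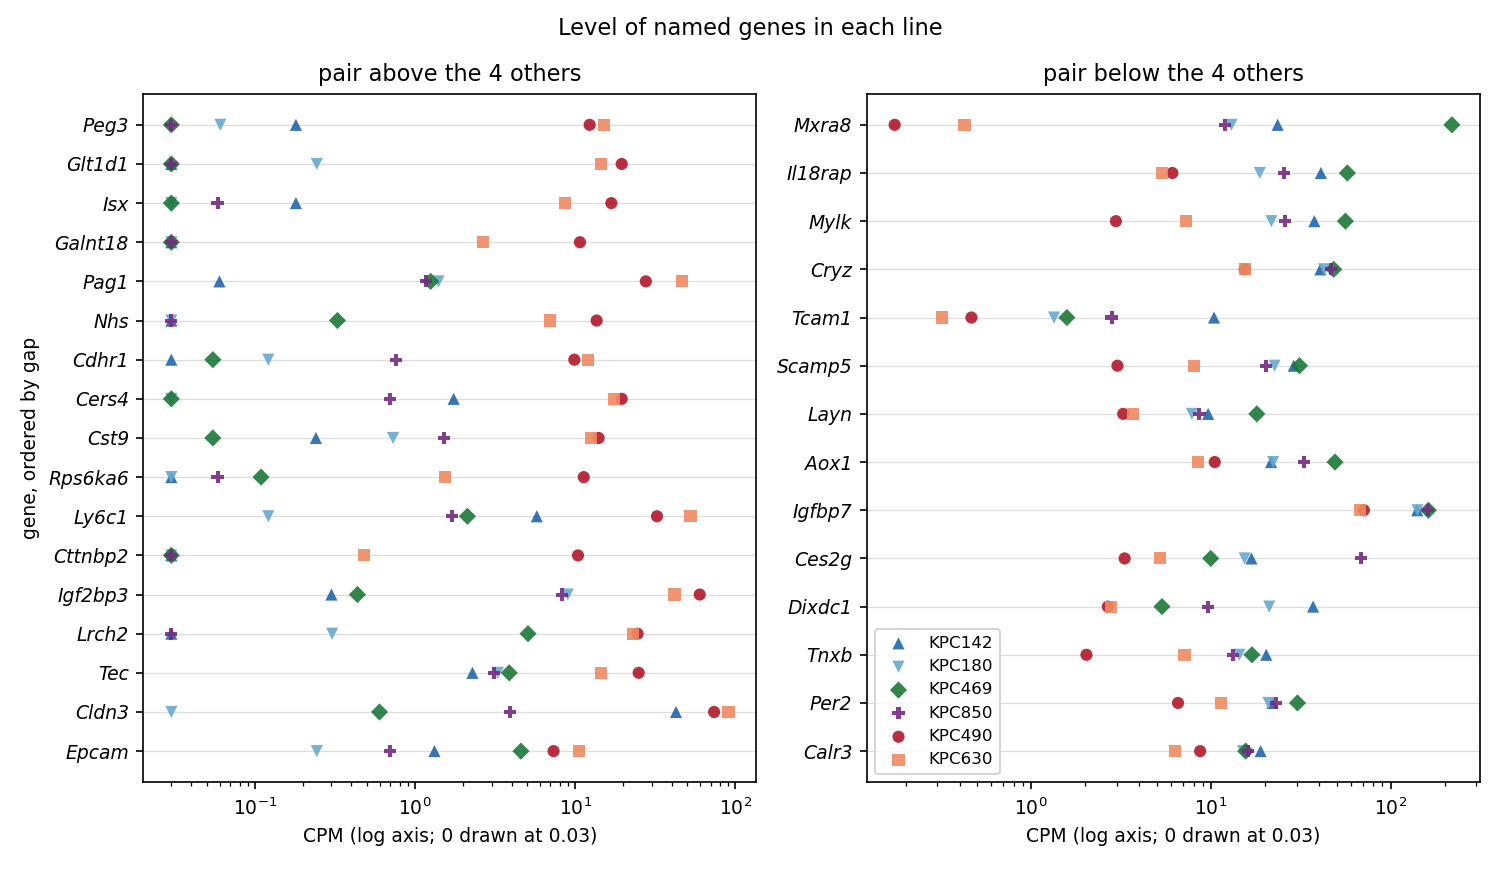
CPM of the named genes in each of the 6 lines on a log axis, with values of 0 drawn at 0.03; left, genes with the pair above, and right, genes with the pair below, ordered by gap. KPC490 (red circles) and KPC630 (orange squares) lie to the right of every other line on the left panel, from Peg3 (12.3 and 15.2 CPM) to Epcam (7.32 and 10.5 CPM), and to the left of every other line on the right panel.

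With the pair below, only Mxra8 (ENSMUSG00000029070, chromosome 4) had a gap of over 4-fold. It encodes a matrix-associated adhesion protein that also serves as an entry receptor of arthritis-causing alphaviruses. Mxra8 read 0.174 CPM in KPC490 and 0.426 in KPC630, against 23.5 in KPC142, 13 in KPC180, 219 in KPC469 and 12.0 in KPC850. The edge ratio, KPC850 to KPC630, was 28.2 (14.0 to 66.2) and the gap 4.49. Its neighbours Aurkaip1 and Dvl1 read 36.5 to 65.1 CPM and 60.3 to 126 CPM over the 6 lines, with the pair inside the range of the others.

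Receptors were among the next genes below. Il18rap, an accessory chain of the interleukin-18 receptor (chromosome 1), read 6.10 and 5.32 CPM in KPC490 and KPC630, against 40.9, 18.7, 57.4 and 25.4 in KPC142, KPC180, KPC469 and KPC850 (edge ratio 3.07, 2.45 to 3.86). Layn, a hyaluronan receptor, read 3.25 and 3.67 CPM in the pair, against 9.65, 7.83, 18.0 and 8.63 in the same lines (2.13, 1.58 to 2.90). Both genes were highest in KPC469, as Mxra8 was.

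In other genes the lines fell into 2 tight groups. Igfbp7, a secreted protein that binds insulin-like growth factors, read 70.9 and 67.4 CPM in KPC490 and KPC630 and 140.4, 141, 162 and 162 in KPC142, KPC180, KPC469 and KPC850 (edge ratio 1.98, 1.85 to 2.12). Cryz, a quinone reductase, read 15.4 and 15.5 CPM in the pair and 40.6, 42.7, 48.2 and 46.5 in those lines (2.62, 2.28 to 3.02). In both genes the spread within the pair and among the other lines was small beside the gap.

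Contractile, metabolic and clock genes followed. Mylk, the myosin light chain kinase, read 2.96 and 7.24 CPM in KPC490 and KPC630, against 37.6, 21.7, 56.0 and 25.8 in KPC142, KPC180, KPC469 and KPC850. Aox1, an aldehyde oxidase, read 10.5 and 8.47 CPM in the pair, against 21.6, 22.2, 49.0 and 33.1. Per2, a repressor of the circadian clock, read 6.56 and 11.4 CPM in the pair, against 22, 20.9, 30.3 and 23.1. The other genes of the widest gaps below were Tcam1, Scamp5, Dixdc1, Ces2g, Tnxb and Calr3, with gaps of 0.78 to 1.32. Tcam1 rests on few counts: its edge ratio of 2.87 had an interval from 1.23 to 7.46. 1700012B09Rik read 1.57 CPM in KPC490 and 0 in KPC630, against 3.44 to 10.3 in the others, which is a gap of 1.08.

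The genes of known pathways were counted in 27 lists, of which 511 genes reached the minimum. The pair was above for 40 of them (7.83%) and below for 17 (3.33%), beside 7.16% and 7.11% of all 10234 genes. Of 28 epithelial junction genes, the pair was above for 3 (10.7%) and below for none, and the list's median difference between the pair and the others was 0.54 on the log2 scale, beside 0.03 over all genes. Next to Cldn3 and Epcam, Patj, a polarity protein of tight junctions, read 55.9 and 58.2 CPM in KPC490 and KPC630 and 23.5 to 40.7 in the others. Transcripts of Patj share short stretches with many other genes, which leaves its level uncertain. The other claudins of the list at the minimum were not selected. Cldn6 read 105 and 104 CPM in KPC490 and KPC630 but 170.2 in KPC850, Cldn18 408 and 457 CPM but 504 in KPC180, and Cldn12 66.3 and 55.3 CPM but 74.7 in KPC850. Cldn4 and Cldn7, looked up after the values were seen, fell short of the minimum, with both lines of the pair over the others. Cldn4 read 2.27 and 3.35 CPM in the pair and at most 0.485 in the others, and Cldn7 6.39 and 5.38 CPM and at most 3.21. E-cadherin (Cdh1), in contrast, read 298 and 462 CPM in the pair and 399.8 to 767 in the others, so KPC490 was the lowest line and KPC630 was not.

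Of 9 genes of epithelial transcription and splicing, 1 was above (11.1%, beside 7.16% of all genes) and none below. It was Spint1, an inhibitor of membrane serine proteases, at 22.4 and 6.81 CPM in KPC490 and KPC630 and 0.758 to 3.27 in the others. None of the 8 keratins lay outside the range of the other lines, beside 7.16% above and 7.11% below over all genes. So short a list can hold none at those shares. Of 15 mesenchymal genes, Tnc was above (6.67%) and Snai2 below (6.67%), beside 7.16% and 7.11% of all genes. Tnc, a matrix glycoprotein, had an edge ratio of 1.34 (0.942 to 1.92), and Snai2, an E-box repressor, 1.03 (0.728 to 1.47). Neither interval excluded 1.

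Among 18 imprinted genes, Peg3 and H13 were above (11.1%, beside 7.16% of all genes) and none was below (7.11% of all genes). The list's median difference was -0.26, beside 0.03 over all genes. H13 had a gap of only 0.03. Of 19 genes of Src family kinases and their regulators, Pag1 was above and Cblb below. Each was 5.26% of the list, beside 7.16% and 7.11% of all genes. Cblb, a ubiquitin ligase that restrains receptor signalling, read 17.7 and 16.6 CPM in KPC490 and KPC630, against 27.3, 51.5, 24.1 and 28.6 in KPC142, KPC180, KPC469 and KPC850.

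Matrix genes divided in both directions. Of 11 collagens, 1 was above (9.09%, beside 7.16% of all genes) and 2 below (18.2%, beside 7.11%). Col7a1, of the anchoring fibrils under epithelia, was above at 21.6 and 41.7 CPM in KPC490 and KPC630 and 1.42 to 10.3 in the others. Col6a2 and Col6a1, neighbours on chromosome 10 that encode chains of collagen VI, were below. Col6a2 read 2.15 CPM in KPC490 and 10.5 in KPC630, against 16.1 to 22.5 in the others. Col6a1 read 4.12 CPM in KPC490 but 45.3 in KPC630, against 50.5 to 77.4. Of 22 protease and inhibitor genes, 3 were above (Adamts1, Plau and Cst3) and 1 below (Plaur). These were 13.6% and 4.55%, beside 7.16% and 7.11% of all genes. Plau, the urokinase-type plasminogen activator, read 9.53 and 18.0 CPM in the pair and 3.11 to 5.75 in the others, and its receptor Plaur was below by a gap of 0.09.

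Of 15 chemokine and cytokine genes, Cxcl12 was above (6.67%) and Cx3cl1 below (6.67%), shares near the 7.16% and 7.11% of all genes. Cx3cl1, a membrane-bound chemokine, read 31.8 and 28.0 CPM in KPC490 and KPC630, against 51.4, 80.7, 73.8 and 67.5 in KPC142, KPC180, KPC469 and KPC850 (edge ratio 1.61, 1.45 to 1.80). Lgals1, the galectin that can act on T cells, was the 1 gene below among 13 of T cell inhibition (7.69%), with a gap of 0.18. None of 13 genes of MHC class I presentation and none of 11 interferon response genes was selected. Lists this short can hold none at the shares of all genes, so nothing is read from this. Pcdh7, the gene in the title of the study, was not selected either: it read 47.6 CPM in KPC490, 3.78 in KPC630, 4.31 in KPC142, 109 in KPC180, 0.109 in KPC469 and 132 in KPC850.

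In growth signalling, 5 of 27 genes of MAPK output and the EGF family were above (18.5%, beside 7.16% of all genes) and none was below (7.11% of all genes). Spry1, a feedback inhibitor of the pathway, had the widest gap at 24.4 and 18.0 CPM in KPC490 and KPC630, against 7.83 to 14.1 in the others (edge ratio 1.28, 1.08 to 1.52). Egfr read 41.6 and 89.2 CPM in the pair and 6.95, 31.7, 24.0 and 37.5 in KPC142, KPC180, KPC469 and KPC850, and its edge interval (0.997 to 1.24) did not exclude 1. The intervals of Erbb3 and Areg, a receptor and a ligand of the family, also reached below 1. Of 35 cell cycle genes, 5 were above (14.3%, beside 7.16% of all genes) and 1 below (2.86%, beside 7.11%). The widest gap was 0.21, in the mitotic kinase Aurkb.

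Lineage, stress and oncofetal lists were counted in the same way. Cdx2, an intestinal homeobox factor, read 103 and 62.9 CPM in KPC490 and KPC630, against 18.2, 7.83, 8.99 and 41.0 in KPC142, KPC180, KPC469 and KPC850 (edge ratio 1.53, 1.39 to 1.68). Foxa2 was below by 0.03, and the other 14 of 16 lineage factors were inside the range. The list thus had 6.25% above and 6.25% below, beside 7.16% and 7.11% of all genes. Of 24 genes of the NRF2 response, 3 were below (12.5%, beside 7.11% of all genes) and none above (7.16% of all genes). The widest was Fth1, the ferritin heavy chain, at 872 and 1025 CPM in the pair and 2436, 1462, 3082 and 1559 in the same lines (1.43, 1.40 to 1.45), and Hmox1 and Slc7a11 had gaps of 0.06 and 0.04. Of 10 oncofetal genes, Igf2bp3 and Afp were above. Afp, alpha-fetoprotein, read 9.93 and 13.7 CPM in the pair and 1.96 to 6.99 in the others.

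In the 10 lists not described above (integrin and laminin, protocadherin, glycolysis and hypoxia, cholesterol and fatty acid synthesis, TGF-beta and YAP/TAZ, Wnt and Notch, gastric-type products, PDAC drivers, unfolded protein response and guidance molecules), no more than 3 genes were above or below. Each list held 12 to 32 genes at the minimum. The shares were 0% to 9.38% above and 0% to 9.09% below, beside 7.16% and 7.11% of all genes. Among these, Sema7a, a membrane semaphorin, read 10.5 and 6.71 CPM in KPC490 and KPC630 and 2.10 to 4.61 in the others. Pfkm, a glycolytic enzyme, read 73.6 and 60.6 CPM in the pair and 92.4 to 163 in the others.

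The 2 lines of the pair were not alike for every selected gene. The median difference between KPC490 and KPC630, whatever its sign, was 0.19 on the log2 scale for genes above and 0.17 for genes below, against 0.30 over all 10234 genes. At least 2-fold differences within the pair occurred in 29 genes above (3.96%) and 19 below (2.61%). Requiring both lines on 1 side of the others itself favours genes in which they are close, so these values are a description. The gap was wider than the difference within the pair for 300 genes above (40.9%) and 323 below (44.4%). Among 2-fold gaps this held for 33 of 42 above and 7 of 9 below.

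Of the 42 genes, 25 were higher in KPC490 and 17 in KPC630, and 5 differed at least 4-fold within the pair on the log2 CPM scale with its prior count. Galnt18 was just short of that, with KPC630 minus KPC490 at -1.97, though its plain CPM ratio was 4.04. Cxcl12, the chemokine ligand of Cxcr4, read 0.697 CPM in KPC490 and 14.3 in KPC630, and 0 to 0.120 in the others. KPC630 was thus 20.5-fold (11.6 to 40.3) over KPC490, while the edge ratio to KPC142 was 5.82 (1.29 to 53.5). Cttnbp2, a cortactin-binding protein gene, went the other way, with 10.4 CPM in KPC490, 0.479 in KPC630 and 0 counts elsewhere. Gpnmb, at 18.1-fold (10.1 to 35.6), and Rps6ka6, a ribosomal S6 kinase at 7.30-fold (4.92 to 11.2), were also higher in KPC490. Chst15, a chondroitin sulfate sulfotransferase, was 12.2-fold (8.69 to 17.6) higher in KPC630. In Cttnbp2, Cxcl12, Gpnmb and Chst15 the difference within the pair was wider than the gap, while in Rps6ka6 it was slightly narrower than its gap of 2.89.

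**Figure D3:**
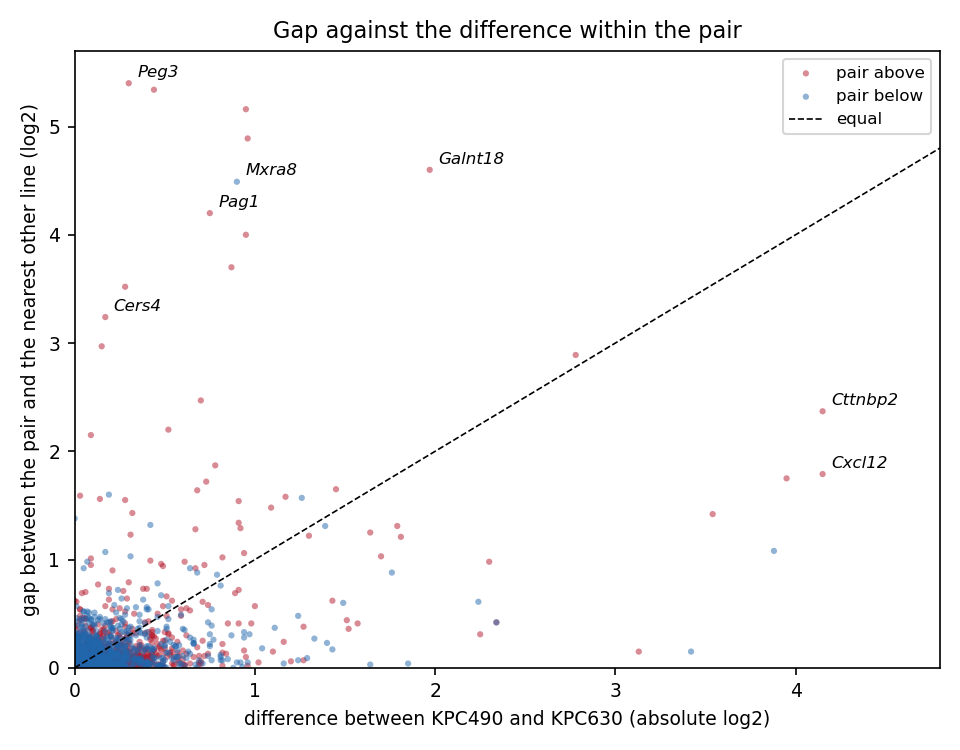
Each point is 1 of the 1461 genes, with the absolute log2 difference between KPC490 and KPC630 on the horizontal axis and the log2 gap to the nearest other line on the vertical axis; the dashed line marks equality. Peg3, Pag1, Mxra8 and Cers4 lie far above the line, Cttnbp2 and Cxcl12 lie under it, and most points crowd near 0 on both axes.

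The nearest other line was most often KPC850, for 273 of the genes above and 239 of those below, and next KPC180, for 185 and 214. KPC469 was nearest for 153 and 137 and KPC142 for 122 and 138. Among the 42 genes of 2-fold gaps the split was 13 for KPC142, 11 for KPC850, 10 for KPC469 and 8 for KPC180. The level of the 4 other lines varied by a median of 0.52 for genes above and 0.51 for genes below, against 0.79 over all genes, on the log2 scale. Requiring the pair to pass all 4 of those lines itself favours genes in which they lie close, so these values are a description.

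Position on the chromosomes was not part of the rule, and the selected genes were unevenly spread. On chromosome 1 the pair was below for 228 of 586 expressed genes (38.9%) and above for 4. On chromosome 10 it was above for 148 of 475 (31.2%) and below for 3. Chromosome 8 had 126 of 578 genes below (21.8%), chromosome 19 had 75 of 383 (19.6%) and chromosome 3 had 68 of 512 (13.3%). Chromosomes 6, 14 and 7 had 15.3%, 14.2% and 11.3% of their genes above. Chromosomes 1, 8, 19 and 3 together held 69.0% of the positioned genes below and 20.2% of the expressed genes.

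**Figure D4:**
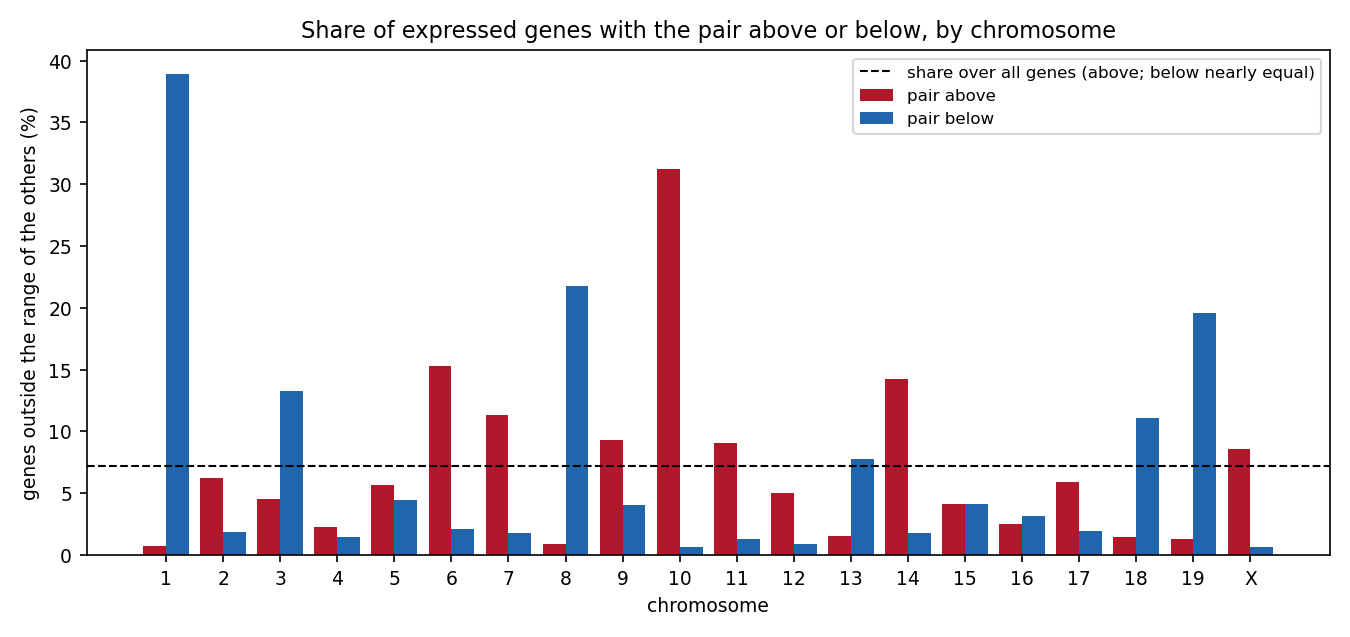
Percent of the expressed genes of each chromosome with the pair above (red bars) or below (blue bars) the 4 other lines; the dashed line marks the share above over all genes, 7.16%. The tallest bars are the share below on chromosome 1 (38.9%) and the share above on chromosome 10 (31.2%).

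The excess ran along the whole of chromosomes 1 and 10 and came in small steps. With chromosome 1 split by gene order into 4 equal segments, the pair was below for 33.6% to 42.2% of the genes of a segment. In the segments of chromosome 10 it was above for 25.2% to 36.1%. The median gap of the 228 genes below on chromosome 1 was 0.14, and 2 of them, Il18rap and Aox1, had 2-fold gaps. On chromosome 10 the median gap was 0.16, no gene reached 2-fold, and the widest gap was 0.95 in Cbarp, a regulator of calcium channels.

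The medians of single lines show which libraries lie behind these counts. After each gene was set relative to its mean log2 CPM over the 6 lines, chromosome 1 genes had a median of -0.17 in KPC490 and -0.20 in KPC630. The same median was 0.11 in KPC142, 0.03 in KPC180, 0.05 in KPC469 and 0.15 in KPC850. On chromosome 10 it was 0.34 in KPC490 and 0.09 in KPC630, against -0.27, -0.08, -0.14 and 0.06 in those 4 lines, so KPC630 lay close to KPC850. Without KPC630, KPC490 alone was above the 4 others for 315 chromosome 10 genes (66.7%), beside 18.5% of all genes. Without KPC850 the pair was above for 239 (50.6%), beside 12.4%.

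Chromosome 8 was low in 3 lines rather than in the pair alone. Its medians were -0.21 in KPC490, -0.22 in KPC630 and -0.25 in KPC850, against 0.22 in KPC142, 0.34 in KPC180 and 0.19 in KPC469. Without KPC850 the pair was below for 361 of 576 genes (62.7%), beside 12.1% of all genes. The count was 223 without KPC490 (38.9%, beside 16.9%) and 221 without KPC630 (38.4%, beside 15.7%). On chromosome 19 the count of 75 (19.6%, beside 7.11% of all genes) became 117 without KPC180 (30.9%, beside 10.6%). It became 158 without KPC630 (41.6%, beside 15.7%). The share over all genes thus rose as well when a line was left out. What underlies the chromosome medians was not tested.

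**Figure D5:**
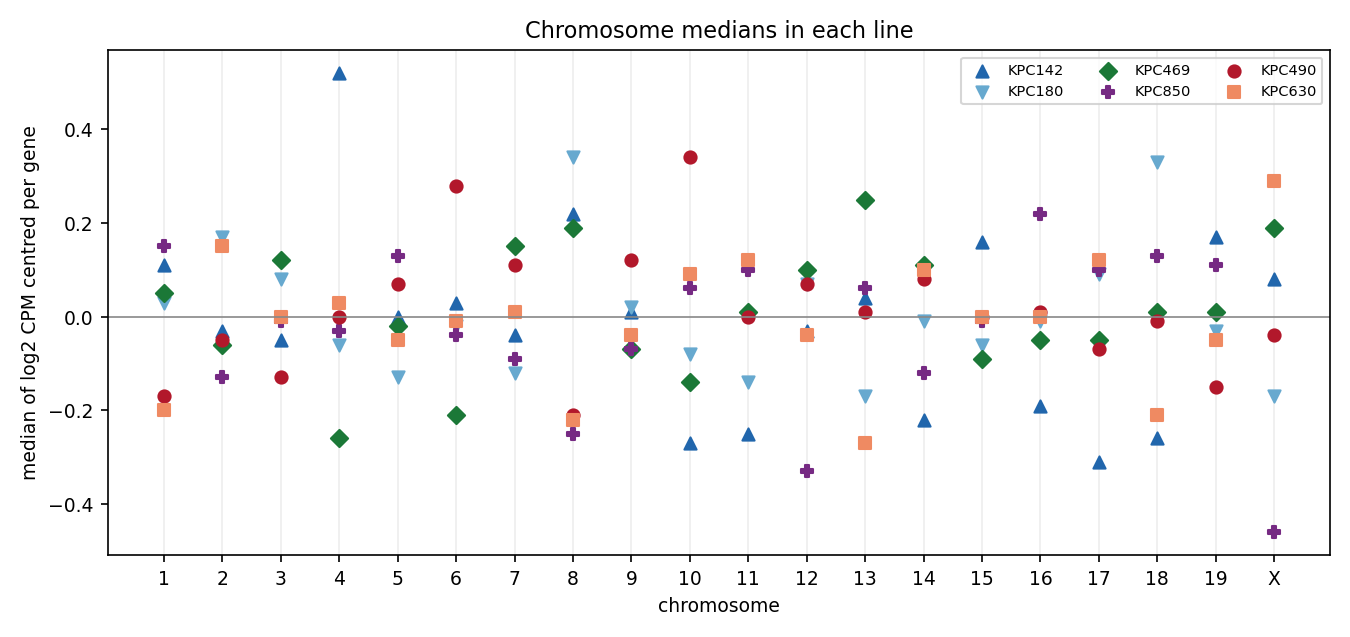
Median of log2 CPM, centred per gene on the mean of the 6 lines, for the expressed genes of each chromosome in each line. On chromosome 1 KPC490 and KPC630 are the 2 lowest lines (-0.17 and -0.20), on chromosome 10 they are the 2 highest (0.34 and 0.09), and on chromosome 8 KPC850 lies with them (-0.25).

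Selected genes also lay next to each other. Of 731 positioned genes above, 253 (34.6%) were adjacent, among expressed genes, to another gene above, while 1088 of 9450 other genes (11.5%) were adjacent to a gene above. For genes below the counts were 309 of 720 (42.9%) and 953 of 9461 (10.1%). These shares were not adjusted for the uneven spread over chromosomes, which by itself puts selected genes side by side. Grouping beyond that was not tested. There were 13 runs of at least 5 consecutive selected genes in the same direction, 10 of them below and 7 on chromosome 1. The longest held 7 genes, and 1 of that length ran from Wdfy1 to Mff on chromosome 1. Its median gap was 0.20, so it was made of small differences.

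Wide gaps with the pair above were spread over many chromosomes. None of the 42 genes of 2-fold gaps above lay on chromosome 10. On chromosome 1, where most selected genes were below, there was 1, Tcf24. These 2 chromosomes hold 4.67% and 5.76% of the expressed genes. Counts this low can occur at those shares, so nothing is read from them. Chromosomes 7 and 6 held 5 and 4 of the 42. Isx, Cers4 and Kcnk1 were above on chromosome 8, where most selected genes were below. Of the 9 genes of 2-fold gaps below, Il18rap and Aox1 lay on chromosome 1 and Cryz on chromosome 3. Isx read 16.8 and 8.62 CPM in KPC490 and KPC630, and its neighbour Hmgxb4 read 26.5 and 25.0 CPM there against 27.5 to 52.9 in the others.

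Genes whose log2 CPM most resembled those of the 4 given genes over the 6 lines were found by Pearson correlation, with no p-value because the points share the libraries. Isx (r = 0.986), Faap24 (0.982) and Mtfmt (0.979) were nearest to Peg3. Mtfr2, Cbarp and Tinf2 were nearest to Pag1 at 0.984 to 0.986, Rcc1, Zfp511 and Prkaa2 to Cldn3 at 0.982 to 0.994, and Map3k10, Kcnk1 and Pofut1 to Epcam at 0.977 to 0.987. Faap24, a gene of the Fanconi anaemia DNA repair complex, read 12.1 and 11.8 CPM in KPC490 and KPC630 and 5.94 to 7.25 in the others, a far smaller contrast than that of Peg3.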

How the data were processed

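RNA was measured in 1 library from each of 6 lines, each treated as its own group. Per the submitters' processing notes, the tools were Trimmomatic 0.36, STAR 2.7.10b and RSEM 1.3.3 with build GRCm39. The deposited values are the authors' expected counts, RSEM's estimates after ambiguous reads are divided between genes. Here they were rounded to whole numbers, scaled by edgeR 4.0.16 (TMM factors on the 11531 genes kept by filterByExpr) and written as log2 CPM with a prior count of 2. A fold on this scale understates the change of low genes. Gene names, chromosomes and gene order came from GENCODE vM21 (52029 identifiers matched), whose build is GRCm38, so no coordinate of it is given. Except for Zim1, genes called neighbours were next to each other among the genes at the 10 CPM minimum. Promoter windows came from RefSeq.

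The pair, the genes and the lists were chosen with earlier results of these data known. Named genes were the 4 given genes, the 15 widest gaps in each direction (without Gm and Rik symbols), up to 4 selected genes of each list, those at the edges of the rule and those most like the given genes. The remaining genes of 2-fold gaps, genes next to named ones and Cldn4, Cldn7, Cdh1, Pcdh7, Xist, Usp29, Zim1 and Hspa8 were named after their values were seen. A few genes named by this rule are not reported here. Transcripts sharing at least 200 bases at 90% identity were sought with BLAST+ 2.17.0, and 40 of 126 genes examined had such a partner. Replicate tests were not possible. Gap calculations were tested on simulated data. Alternatives were DESeq2 1.42.0 size factors, library totals, prior counts of 0.5 and 5, minimums of 5 and 20 CPM, the filterByExpr genes, unrounded counts and leaving out each line. The chromosome counts were added after the data were seen.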

Additional observations from a re-analysis of the deposited data

How the results depend on the processing

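No paired analysis was possible because each line is its own group with 1 library and no test was made. KPC490 and KPC630 stayed the closest pair by the 4 similarity measures run. The selected genes depended little on scaling: 726 of 733 genes above and 713 of 728 below remained under DESeq2 size factors, and 722 and 698 under library totals. The number of wide gaps depended on the expression minimum. At a minimum of 20 CPM, 24 genes above had 2-fold gaps and 5 had 4-fold gaps. Over the filterByExpr genes, which omit genes near silent in some lines, these were 16 and 1, and no gene below (0) had a 4-fold gap. Under the other scalings, prior counts, the 5 CPM minimum and unrounded counts, all counts of genes above, below and per chromosome stayed within 1.5 times. Leaving out 1 line at a time gave 1045 to 1876 genes above and 1046 to 1718 below, 47 to 100 and 15 to 57 with 2-fold gaps, and 19 to 42 and 1 to 13 with 4-fold gaps. The same gave 248 to 305 genes below on chromosome 1, 129 to 361 on chromosome 8 and 87 to 158 on chromosome 19, and 156 to 315 above on chromosome 10. The share over all genes rose as well. It went from 7.11% to between 10.3% and 16.9% below, and from 7.16% to between 10.3% and 18.5% above. Of 108 counts of list members under other scalings, 2 moved: chemokine and cytokine genes above numbered 2 rather than 1 under DESeq2 size factors and library totals. Wide gaps above rest on low counts, and 14 of 42 such genes passed filterByExpr. Intervals cover counting error only.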
